A study of Mus musculus with 2 samples.

Results

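The striatal projection neuron genes described here are 9 genes of the developing mouse striatum: the transcription factor genes Foxp1, Ebf1, Meis1, Meis2 and Zfp503, and the signalling genes Ppp1r1b, Adora2a, Rgs9 and Pde10a. They were chosen by name, and each symbol matched 1 Ensembl identifier, so that all 9 were found among the 43346 genes listed. They were measured in whole forebrain of B6NCrl mouse embryos at 16.5 days of gestation, in tissue pooled from males and females, with no transgene, treatment or second age. Each library was made from 10 ng of total RNA above 200 nt in size, to which ERCC spike-in RNAs had been added. The only group has 2 biological replicates, each a separate pool, and replicate 2 came from 41 embryos while the size of the first pool was not stated. Because the tissue was neither sorted nor dissected into striatum and cortex, any of these transcripts may come from other forebrain cells that use the same gene.

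Striatal projection neurons are the inhibitory, DARPP-32-containing output neurons of the striatum, born in the lateral ganglionic eminence of the embryonic forebrain. They form a direct pathway, marked by the dopamine receptor Drd1 and substance P, and an indirect pathway, marked by Drd2, enkephalin and the adenosine receptor Adora2a. Dopamine and adenosine receptors act on cyclic AMP in these cells, protein kinase A then phosphorylates DARPP-32, and the phosphodiesterase PDE10A breaks cyclic nucleotides down again. FOXP1, EBF1, MEIS2 and NOLZ-1 (the product of Zfp503) are transcription factors of the same lineage, several of which also serve in other tissues and brain regions.

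The libraries held 31211128 and 26957198 expected counts on genes, which are estimates of reads per gene that need not be whole numbers. Levels are given as TPM, a share of all transcripts in the library, which is corrected for transcript length and can be compared between genes. All 9 genes reached 1 TPM in both libraries, against 60.7% of 21474 protein-coding genes, and 6 of 9 reached 10 TPM in both, against 40.9%. The median level of the 9 was 29.5 TPM, and the median over all protein-coding genes was 5.05 TPM. These genes were picked as striatal markers, and their count at these levels describes the tissue without a test. As a check of the tissue label, the cortical neuron gene Neurod6 stood at 389 and 489 TPM. The hindbrain genes Hoxa2 and Hoxb4 had 0 counts in both libraries. At these depths, 0 counts allowed up to 0.101 and 0.120 TPM for Hoxa2 and 0.0648 and 0.0772 TPM for Hoxb4. The other listed midbrain and hindbrain markers had more counts in replicate 2: Gata3 had 16 and 93, Pax5 3 and 13, En1 1 and 13, and En2 0 and 2.

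Meis2 had the highest level of the 9. It encodes a TALE homeodomain factor that pairs with PBX proteins, and it lies on the reverse strand of chromosome 2 (GRCm38, chr2:115863064-116065839; ENSMUSG00000027210). Its level was 128.8 TPM in replicate 1 and 121.36 TPM in replicate 2, a mean of 125 ± 5.26 TPM (SD, n = 2) that placed it above 94.0% and 93.5% of protein-coding genes in the respective libraries. Meis1, a paralog at chr11:18879817-19018985 on the reverse strand (ENSMUSG00000020160), stood at 34.67 and 24.3 TPM, a mean of 29.5 ± 7.33 TPM. This was the widest relative spread between libraries among the 9 genes. The third member of the family, Meis3, stood between them at 97.96 and 84.23 TPM. Per library, Meis2 was 0.46 ± 0.09 above Meis3 and Meis1 was -1.65 ± 0.21 from Meis3, as log2 ratios of TPM, so that the order of the family was the same in both pools.

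Foxp1, a forkhead repressor gene used in striatal and in cortical neurons, came second. It lies on the reverse strand at chr6:98925338-99522721 (ENSMUSG00000030067), and its level was 102.44 TPM in replicate 1 and 97.15 TPM in replicate 2, a mean of 99.8 ± 3.74 TPM. The paralog Foxp2, a gene of striatal neurons and of deep-layer cortical neurons, averaged 33.1 ± 4.98 TPM, and Foxp4 averaged 24.6 ± 0.615 TPM. Foxp1 exceeded Foxp2 by a log2 ratio of 1.60 ± 0.16 and Foxp4 by 2.02 ± 0.09. The immune member of the family, Foxp3, was close to absent at 0.14 and 0.08 TPM, resting on 9 and 5 counts.

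Ebf1 encodes a helix-loop-helix factor known for B cell development and, in the striatum, for direct pathway neurons. At chr11:44617317-45008091 on the forward strand (ENSMUSG00000057098), it was measured at 36.21 and 28.6 TPM, a mean of 32.4 ± 5.38 TPM. Its family was dominated by this one gene: Ebf4 averaged 2.67 TPM, Ebf2 2.39 TPM and Ebf3 0.5 TPM. Ebf1 stood above Ebf4 by a log2 ratio of 3.61 ± 0.06 and above Ebf2 by 3.75 ± 0.23. Because Ebf1 is also a gene of B lineage cells and of vessel-associated cells, markers of those cells were read beside it. The 5 B lineage markers summed to 2.96 and 3.22 TPM, and their highest gene was Vpreb1 at 1.86 and 2.41 TPM followed by Cd79b at 0.53 and 0.64 TPM. The 6 mural cell markers summed to 50.2 and 56.1 TPM, led by Rgs5 at 16.13 and 17.62 TPM and Kcnj8 at 12.01 and 13.4 TPM. The share of Ebf1 RNA that came from mural cells was not tested.

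Zfp503, the gene of the zinc finger repressor NOLZ-1, was the lowest of the 9. It lies at chr14:21983959-21989601 on the reverse strand (ENSMUSG00000039081), and its level was 4.61 TPM in replicate 1 against 4.60 TPM in replicate 2. The 95% counting intervals, exact Poisson intervals of the rounded count, ran from 4.14 to 5.12 TPM and from 4.09 to 5.15 TPM. The close match of the 2 values is therefore tighter than counting alone can resolve, and such intervals cover counting error only. Its paralog Zfp703 averaged 8.59 TPM, and Zfp503 was -0.90 ± 0.04 from it on the log2 scale.

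Among the signalling genes, Ppp1r1b was the highest. It encodes DARPP-32, which inhibits protein phosphatase 1 once protein kinase A has phosphorylated its threonine 34. The gene lies on the forward strand at chr11:98348404-98357796 (ENSMUSG00000061718), and its level was 58.29 TPM in replicate 1 and 61.68 TPM in replicate 2, a mean of 60.0 ± 2.40 TPM. Ppp1r1a, which encodes the related phosphatase inhibitor 1, was higher at 85.31 and 70.03 TPM. The groups of values did not overlap, and the log2 ratio of Ppp1r1b to Ppp1r1a was -0.37 ± 0.26. Ppp1r1c had 0 and 2 counts.

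Pde10a encodes the dual cyclic nucleotide phosphodiesterase of striatal neurons. At chr17:8525372-8986648 on the forward strand (ENSMUSG00000023868), it stood at 18.94 and 17.89 TPM, a mean of 18.4 ± 0.742 TPM. Pde1b, the calcium-dependent phosphodiesterase also found in striatum, was higher at 59.14 and 64.48 TPM, and the log2 ratio of Pde10a to Pde1b was -1.75 ± 0.15. The other matched genes of this phosphodiesterase list were lower than Pde10a, with Pde5a at 2.25 TPM, Pde11a at 0.44 TPM and the rod gene Pde6b at 0.13 TPM on average. Pde6a had 0 counts in both libraries, which allows up to 0.0493 and 0.0587 TPM.

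Adora2a encodes the adenosine receptor that marks indirect pathway neurons. At chr10:75316877-75334784 on the forward strand (ENSMUSG00000020178), it was measured at 8.34 and 8.36 TPM, with counting intervals of 7.52 to 9.22 TPM and 7.47 to 9.33 TPM. The A1 receptor gene Adora1, which is used widely in the brain, averaged 17.9 TPM, and the log2 ratio of Adora2a to Adora1 was -1.10 ± 0.004. Adora2b averaged 2.30 TPM, below Adora2a by a log2 ratio that averaged 1.87 ± 0.25. Adora3 rested on 3 counts in each library.

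Rgs9 encodes a regulator of G protein signalling that shortens dopamine receptor responses in striatum and the light response in photoreceptors. It lies at chr11:109225355-109298129 on the reverse strand (ENSMUSG00000020599) and stood at 8.11 and 6.84 TPM, a mean of 7.48 ± 0.898 TPM. Its relatives of the R7 group were Rgs7 at 19.5 TPM, Rgs6 at 9.34 TPM and Rgs11 at 6.41 TPM on average. Rgs9 was -1.39 ± 0.06 from Rgs7 and -0.32 ± 0.10 from Rgs6 as log2 ratios. Rgs9 was above Rgs11 within each library, by log2 ratios of 0.05 in replicate 1 and 0.45 in replicate 2. In replicate 1 their counting intervals overlapped, at 7.33 to 8.95 TPM for Rgs9 and 6.83 to 8.93 TPM for Rgs11. Across libraries their values also overlapped, since Rgs11 read 7.83 TPM in replicate 1 and Rgs9 read 6.84 TPM in replicate 2.

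In descending order the 9 genes were Meis2, Foxp1, Ppp1r1b, Ebf1, Meis1, Pde10a, Adora2a, Rgs9 and Zfp503. Of the 8 neighbouring pairs, 7 were apart in the sense that both libraries of the higher gene exceeded both of the lower. Ebf1 and Meis1 were not apart, with a log2 ratio of 0.15 ± 0.12. Adora2a and Rgs9 met the rule only narrowly, with 8.34 TPM as the lower Adora2a value and 8.11 TPM as the higher Rgs9 value, and their counting intervals overlapped. The widest step was from Pde10a to Adora2a, a log2 ratio of 1.14 ± 0.06. The plot of levels shows these steps by library.

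**Figure D1:**
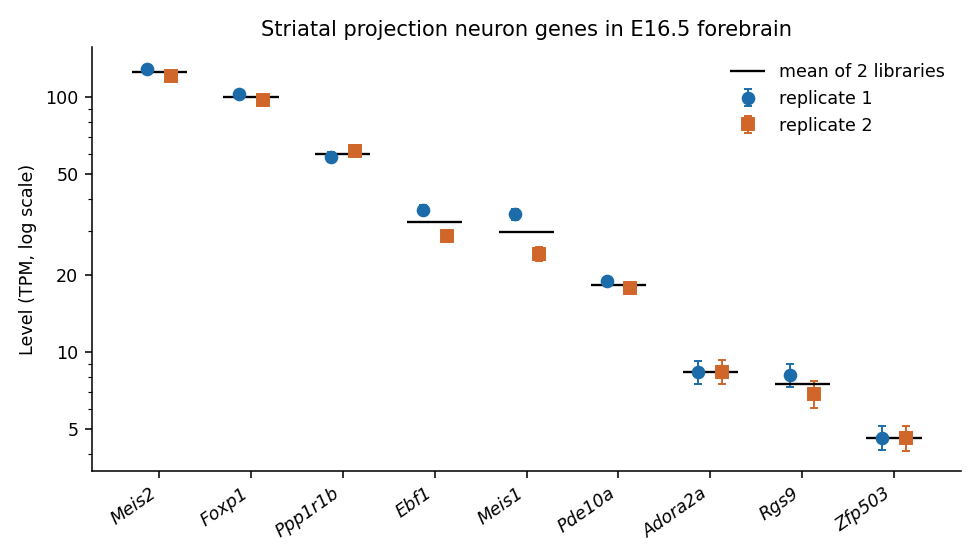
Level of each of the 9 genes in TPM on a log axis, 1 circle for replicate 1 and 1 square for replicate 2, with 95% counting intervals as error bars and the mean of the 2 libraries as a line. Meis2 at 125 TPM and Foxp1 at 99.8 TPM lead, Zfp503 at 4.61 TPM is lowest, and Ebf1 and Meis1 are the neighbours whose values overlap.

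Set among their paralogs, Foxp1, Ebf1 and Meis2 were the highest genes of their families in both libraries. Meis1, Ppp1r1b, Adora2a, Zfp503 and Pde10a each stood below at least 1 listed relative in both, and Rgs9 stood below Rgs7 and Rgs6. These relatives are related by sequence and are not all striatal genes.

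**Figure D2:**
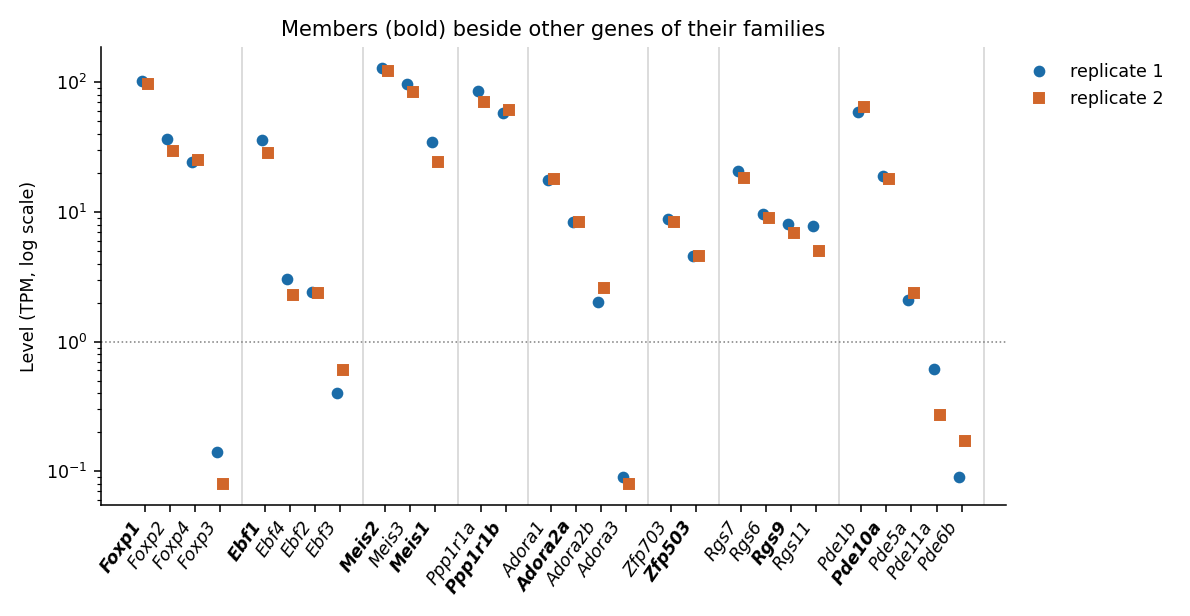
TPM of the 9 genes (bold) and their listed paralogs on a log axis, circles for replicate 1 and squares for replicate 2, with families divided by vertical lines and a dotted line at 1 TPM. Ppp1r1c and Pde6a are left out because at least 1 library had 0 counts. Ebf1 at 36.21 and 28.6 TPM stands far above Ebf4, Ebf2 and Ebf3, whereas Adora2a and Pde10a lie below Adora1 and Pde1b.

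Total RNA libraries also hold unfinished and non-coding transcripts, so the levels above were divided by transcript, using the percent of each gene that the authors deposited per transcript. In 9540 protein-coding genes with at least 2 listed transcripts and at least 1 TPM in both libraries, the median share typed protein coding was 91.4%, and 9.92% had a leading transcript of another type. Rgs9 was at 100% in both libraries, as were Adora2a and Zfp503, each of which had 1 listed transcript. Ebf1 was at 83.89% and 94.53%, Meis2 at 78.85% and 86.46%, Foxp1 at 75.32% and 75.44%, and Pde10a at 62.29% and 82.07%. Ppp1r1b, at 50.35% and 51.32%, and Meis1, at 42.26% and 49.11%, were lowest, and 12.1% and 9.76% of the 9540 genes respectively lay below their mean shares. Restricted to protein-coding transcripts, Ppp1r1b averaged 30.5 ± 1.63 TPM and Meis1 13.3 ± 1.92 TPM. By the rule used for the order above, Ppp1r1b was then not apart from Ebf1, nor Meis1 from Pde10a.

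**Figure D3:**
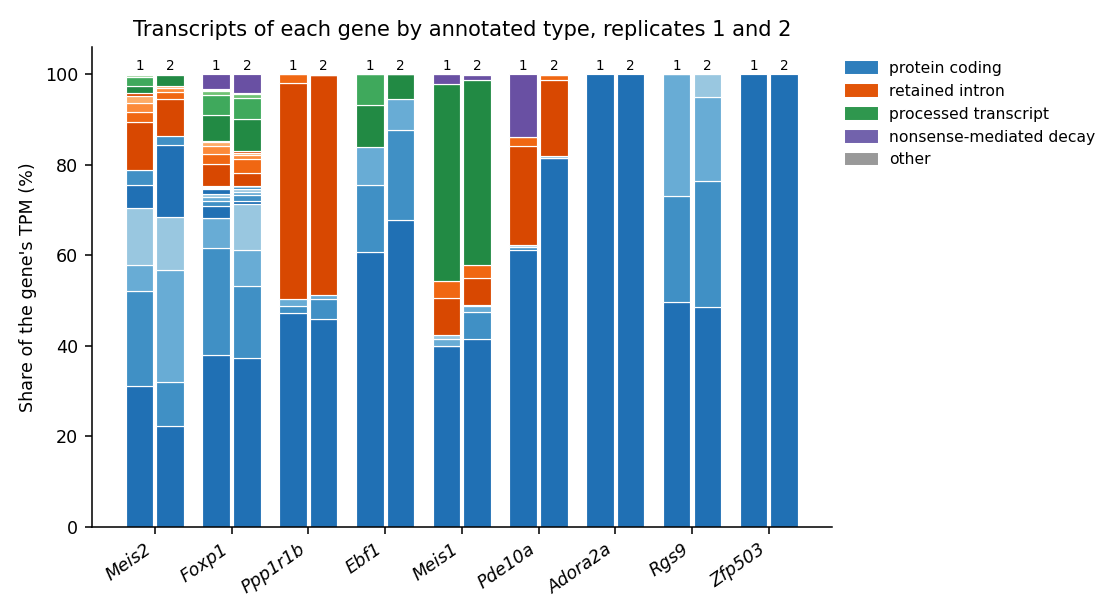
Stacked bars of the percent of each gene's TPM by transcript, 1 bar per replicate, coloured by annotated type, with shades that repeat where a type has many transcripts. Non-coding types take about the same part of Ppp1r1b in both libraries (coding share 50.35% and 51.32%), whereas the coding share of Pde10a goes from 62.29% to 82.07%.

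The division of Ppp1r1b was nearly even between a full-length and a shortened transcript. Ppp1r1b-201, with 7 exons and 194 codons, took 47.31% and 45.92% of the gene. Ppp1r1b-202, annotated as a retained intron type, took 47.85% and 48.67%, or 27.89 and 30.02 TPM. It begins inside the intron before exon 3 and lacks the first 2 exons, which hold 142 coding bases of Ppp1r1b-201, among them the codon of threonine 34. The pair of sequences below, taken from the GENCODE M21 transcripts on GRCm38, shows part of what the transcripts do not share. The first is exon 2 of Ppp1r1b-201 (chr11:98350569-98350629, forward strand) with the threonine 34 codon in capitals. The second is the first exon of Ppp1r1b-202 (chr11:98350855-98350907, forward strand) with the 30 bases that Ppp1r1b-201 lacks in capitals.
Ppp1r1b exon 2: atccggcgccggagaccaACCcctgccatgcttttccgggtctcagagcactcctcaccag
Ppp1r1b-202 first exon: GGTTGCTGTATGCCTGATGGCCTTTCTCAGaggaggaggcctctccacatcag
A model divided the reads between these transcripts, and reads from unspliced RNA reaching into that intron were not separated from reads of a spliced Ppp1r1b-202. The non-coding gene 1700003D09Rik overlaps Ppp1r1b on the other strand and was low, at 0.74 and 0.39 TPM. Whether counting used strand is not given in the sources used here.

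Meis1 had a similar pair. Meis1-201, with 13 exons and 390 codons, took 39.99% and 41.59%, and Meis1-203, annotated as a processed transcript with 9 exons, took 43.65% and 40.91%. Meis1-203 lacks the first 5 exons of Meis1-201, which hold 483 of its coding bases, and 7 of its exons are identical to exons of Meis1-201. It opens with an exon of its own at chr11:19011976-19012002 on the reverse strand, all of it in capitals because no base of it is in Meis1-201.
Meis1-203 first exon: AGCTGCACTTAGACTGAAGTATTTTGA
The leading transcript of Meis1 differed between libraries, but the 2 shares lay within 4 percentage points of each other in each. In all, 89.9% of the 9540 genes had the same leading transcript in both libraries. The antisense gene Gm16141, which lies within Meis1, read 5.09 and 1.84 TPM.

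Meis2 was spread over 19 listed transcripts, with Meis2-205 (401 codons) at 31.18% and 22.27% as the highest on average and Meis2-206 (394 codons) at 5.68% and 24.77%. The intervals deposited with the transcript TPM were wide, at 1.68 to 26.8 TPM and 9.94 to 42.8 TPM for Meis2-206, so that the leading transcript, which differed between pools, was not resolved. A feature of several transcripts at once was steadier. Meis2-205 and Meis2-206 differ by a segment of 21 bases in the coding sequence near its 3′ end (chr2:115867359-115867379, reverse strand), shown in capitals with the bases that flank it in Meis2-205.
Meis2 segment: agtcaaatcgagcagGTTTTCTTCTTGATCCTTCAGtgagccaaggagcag
The 7 transcripts with this segment held 43.01% and 43.07% of Meis2 TPM, and the 6 that join across it held 41.32% and 47.7%. Of the TPM of transcripts that cover the place, 51.0% and 47.4% therefore carried the segment.

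Rgs9 has a known division between a long striatal product, RGS9-2, and a short product of photoreceptors, RGS9-1, that ends in a different tail. Rgs9-201 encodes the long form of 675 codons and took 49.71% and 48.54% of the gene, or 4.03 and 3.32 TPM. Rgs9-204 encodes 484 codons and took 23.5% and 27.85%, or 1.91 TPM in both libraries. Rgs9-203, with 232 codons, took 26.79% and 18.59%. After their last shared coding base, Rgs9-204 has 18 codons of its own and a stop, and Rgs9-201 has 209 codons. The lines below give 15 shared bases in lower case and then, in capitals, the whole tail of Rgs9-204 with its stop codon (chr11:109235843-109235899, reverse strand) and the first 57 bases of the other tail (chr11:109227548-109227604, reverse strand).
Rgs9-204 tail: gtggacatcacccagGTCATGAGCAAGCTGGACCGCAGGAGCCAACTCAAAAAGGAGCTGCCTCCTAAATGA
Rgs9-201 tail: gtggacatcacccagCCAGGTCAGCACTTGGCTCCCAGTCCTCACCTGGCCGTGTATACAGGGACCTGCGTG
The 5 retina markers summed to 1.44 and 1.22 TPM, of the same order as Rgs9-204 itself. Most of this was Gnat1, at 1.2 and 0.98 TPM on 13 and 9 counts, and Pde6b followed at 0.09 and 0.17 TPM. The part of retinal RNA in the Rgs9-204 level was not tested. The deposited intervals of the transcripts were broad for so low a gene, 1.29 to 2.52 TPM and 1.28 to 2.59 TPM for Rgs9-204. The tail of Rgs9-204 continues past a splice site of Rgs9-201 into sequence intronic to the latter, and unspliced RNA was not separated from it.

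Foxp1, with 32 listed transcripts, was led by Foxp1-225 (15 exons, 577 codons) at 38.0% and 37.39%, followed by Foxp1-204 (19 exons, 705 codons) at 23.53% and 15.88%. Foxp1-206, with 673 codons, was assigned 0% in replicate 1 and 10.16% in replicate 2. The gene Gm20696, on the same strand as Foxp1 and overlapping it, read 4.29 and 2.04 TPM, and the division of reads between the 2 genes is uncertain. Ebf1 was led by Ebf1-202 (592 codons) at 60.78% and 67.87%, with Ebf1-201 (591 codons) next at 14.74% and 19.83%. Pde10a was led by Pde10a-202 (796 codons) at 61.15% and 81.62%. Pde10a-205, annotated for nonsense-mediated decay, was assigned 13.73% in replicate 1 and 0.01% in replicate 2, or 2.6 and 0 TPM. Its deposited intervals, 0.678 to 5.27 TPM and up to 3.87 TPM, overlapped.

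The 2 pools were then compared gene by gene, as the log2 ratio of replicate 2 over replicate 1 in scaled counts. With 1 library on each side there is no test, and the 95% exact Clopper-Pearson interval of each ratio covers counting error only. None of the 9 genes differed at least 2-fold with an interval excluding equality, against 1.38% of the 13929 genes whose mean count reached 50. By direction, 0 of 9 passed as lower in replicate 2, against 1.01% of tested genes, and 0 of 9 as higher, against 0.366%. The interval lay below equality for 4 of 9 genes, beside 24.1% of all tested genes, and above it for 0 of 9, beside 26.5%. Meis1 had the lowest ratio at -0.50 (interval -0.61 to -0.38), from 1668 counts in replicate 1 and 1004 in replicate 2. Rgs9 followed at -0.33 (-0.56 to -0.11), then Ebf1 at -0.24 (-0.33 to -0.15) and Meis2 at -0.05 (-0.10 to -0.003). The other 5 genes had intervals that included equality: Foxp1 at -0.04, Zfp503 at -0.02, Adora2a at -0.01, Pde10a at 0.003 and Ppp1r1b at 0.06. The median of the 9 ratios was -0.04, and that of all tested genes was 0.01. These directions are relative to the bulk of genes: scaling to the spike-ins moved the median of all tested genes to 0.56 and put all 9 genes above 0, with Meis1 at 0.06, Rgs9 at 0.22 and Ebf1 at 0.32 again the lowest.

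**Figure D4:**
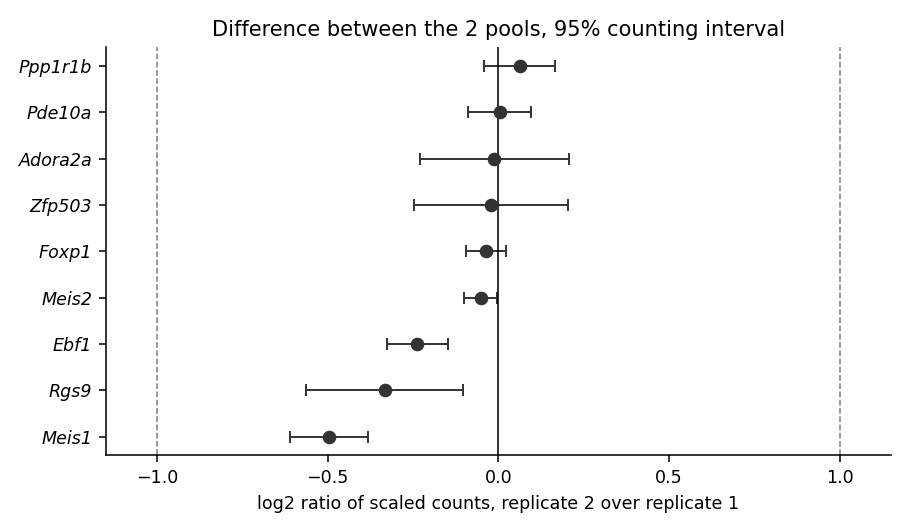
Log2 ratio of scaled counts, replicate 2 over replicate 1, for each of the 9 genes as a point with its 95% counting interval, sorted by value, with a solid line at equality and dashed lines at a 2-fold difference. Meis1 at -0.50, Rgs9 at -0.33 and Ebf1 at -0.24 lie to the left of equality, and no gene reaches a dashed line.

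Other regional markers also differed between these pools. The 5 thalamic markers summed to 83.6 TPM in replicate 1 and 45.7 TPM in replicate 2, led by Tcf7l2 at 48.76 and 22.46 TPM, which passed the 2-fold rule, and Lhx9 at 13.77 and 7.16 TPM. The 5 hypothalamic markers summed to 23.8 and 4.84 TPM, and Avp, Otp and Sim1 passed the rule. The 6 markers of medial eminence interneurons summed to 341 and 287 TPM, led by Sst at 231 TPM and Lhx6 at 35.7 TPM on average. In the other direction, 6 cortical excitatory markers summed to 640 and 803 TPM, the highest being Neurod6 at a mean of 439 TPM, then Neurod2 at 102 TPM. The 6 markers of dividing progenitors, led by Pcna at 149.97 TPM and Cdk1 at 144 TPM, summed to 492 and 607 TPM. The 5 endothelial markers, led by Cldn5 at 82.6 TPM and Pecam1 at 13.9 TPM, summed to 114 and 135 TPM. The 5 meningeal fibroblast markers summed to 129 and 330 TPM, and Col1a1 and Col1a2 passed the rule. The 6 midbrain and hindbrain markers summed to 0.66 and 3.23 TPM; Gata3, at 0.34 and 1.89 TPM, passed the rule, and Pax5 came next at 0.3 and 0.97 TPM. The part of these differences in the ratios of Meis1, Rgs9 and Ebf1 was not tested. In bulk tissue, fewer cells of a type and less RNA per cell cannot be told apart.

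Other genes of the same neurons were read from lists by role. All 7 direct pathway genes reached 1 TPM in both libraries. Their median was 6.61 TPM, with a median log2 ratio between pools of -0.30 over the 6 that reached a mean of 50 counts. The substance P gene Tac1 (66.7 TPM) and the homeodomain gene Isl1 (46.7 TPM) led, and Slc35d3 was lowest at 1.42 TPM. All 6 matched indirect pathway genes reached 1 TPM, with a median of 6.46 TPM and a median ratio of -0.22. Of their ratios, 5 lay below 0 and 1 above. Penk, the enkephalin gene, led at 27.8 TPM with the homeodomain gene Six3 at 13.9 TPM, and the receptor gene Gpr6 was lowest at 2.22 TPM. The receptors that name the pathways, chosen for mention after their values were seen, stood at 10.98 and 10.68 TPM for Drd1 and 5.4 and 3.85 TPM for Drd2. Adora2a, at 8.34 and 8.36 TPM, lay between them in both libraries.

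Of 11 genes shared by both kinds of projection neuron, 9 reached 1 TPM, with a median of 33.1 TPM and a median ratio of -0.28 over the 9 with a mean of at least 50 counts, which leaves out Rasd2 and Scn4b. Arpp21, a cyclic AMP-regulated phosphoprotein gene, led at 83.6 TPM with the GABA-synthesis gene Gad1 at 72.1 TPM. The sodium channel subunit gene Scn4b was lowest at 0.22 TPM. All 7 factors of the lateral ganglionic eminence reached 1 TPM, with a median of 14.0 TPM. Their median ratio was 0.11, with 2 ratios below 0 and 5 above. Dlx1 led at 197 TPM with Dlx5 at 62.4 TPM, and Gsx2, a gene of eminence progenitors, was lowest at 3.98 TPM.

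The partners of the proteins encoded by these genes were present at uneven levels. All 16 matched genes of the cyclic AMP and DARPP-32 cascade reached 1 TPM and 15 reached 10 TPM, with a median of 106.4 TPM. The genes of 2 catalytic subunits of protein phosphatase 1, the target of DARPP-32, led with Ppp1ca at 458 TPM and Ppp1cc at 224 TPM. The gene of the other listed catalytic subunit, Ppp1cb, read 71.64 and 81.73 TPM, closer to the 58.29 and 61.68 TPM of Ppp1r1b. The lowest was Adcy5, the main adenylyl cyclase gene of adult striatum, at 5.06 TPM. Of the 4 genes of RGS9 partners, Gnb5, whose product stabilises RGS9, stood at 42.5 TPM, and the membrane anchor genes differed. Rgs7bp, the anchor used in brain, stood at 5.78 TPM, close to the 7.48 TPM of Rgs9, and Rgs9bp, the anchor used in photoreceptors, at 0.1 and 0.19 TPM.

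All 6 TALE partners of the MEIS proteins reached 1 TPM, with a median of 33.0 TPM. Pbx3 stood at 49.8 TPM on average, and Pbx2 was lowest at 5.41 TPM. Pbx3 read 59.03 and 40.61 TPM, lower in replicate 2 as Meis1 was on the TPM scale. The list as a whole did not share this fall: its median log2 ratio between pools was -0.08, with 4 genes below 0 and 2 above. None of the genes in these 7 lists or of the listed paralogs that reached a mean of 50 counts passed the 2-fold rule between pools, beside the 1.38% of all tested genes. Below that minimum, and so not tested, were 4 genes of the lists (Chrm4, Rasd2, Scn4b and Rgs9bp) and 7 paralogs (Foxp3, Ebf3, Ppp1r1c, Adora3, Pde11a, Pde6a and Pde6b). Of these, Rasd2, with a mean count of 43, read 1.2 and 0.59 TPM, a log2 ratio of -1.04 (interval -1.79 to -0.36).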

How the data were processed

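Total RNA-seq of 2 forebrain pools, 1 group, gave 1 gene and 1 transcript table each. Quantification used mm10 and GENCODE M4, per the submitters' processing notes. The aligner was not given in the sources used here, nor was the counting program. Expected counts were deposited by the authors without normalization, beside TPM scaled to a fixed sum that includes spike-ins (5.93% and 4.10% of TPM) and FPKM, per the file headers and column sums. Each transcript's percent of its gene and interval bounds of its TPM were deposited too, per the file headers. Spike-in content therefore lowers every TPM of a library.

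Gene names, types, coordinates and sequences came from GENCODE M21 (GRCm38, the assembly of mm10), which matched 42462 of 43346 identifiers. Of 92 transcripts of the 9 genes, 91 matched under the same genes. Of these, 87 had the same length in both annotations, and sequences were printed only from them. The transcript not matched, Gm20696-202, is counted here with Foxp1 but belongs to Gm20696 in GENCODE M21. Gpr52 and Pde2a were not matched and are not analysed here.

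With 1 group there was no comparison of conditions, and p-values were not calculated. Expected counts, rounded to whole numbers, were scaled by TMM factors (edgeR 4.0.16, R 4.3.3); ratios used a prior count of 0.5. A gene was called at a mean count of at least 50, a 2-fold ratio and a 95% counting interval excluding equality. Intervals cover counting error only, and because PCR reads are not independent molecules they may be too narrow even for that. The procedure was tested on simulated Poisson counts, which hold counting error and no variation between pools. Python 3.11.15, numpy 2.4.6, pandas 2.3.3, scipy 1.17.1 and matplotlib 3.10.9 did the rest.

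Genes named are all 9, all listed paralogs, the 2 highest and the lowest of each pathway list, the 2 highest and any called gene of each cell type list, and transcripts with a mean share of at least 20%. Some genes that this rule takes are not reported here. Other transcripts, Drd1, Drd2, Ppp1cb, Chrm4, Rasd2 and defining markers near 0 were named after their values were seen. The members and lists were chosen with earlier results of these data known. Alternatives covered FPKM, posterior means, rescaled TPM, 3 other scalings (DESeq2 1.42.0 size factors, gene totals, spike-ins), the prior count, the count and TPM minimums and each replicate left out. A restriction to protein-coding transcripts was chosen after seeing the data.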

Additional observations from a re-analysis of the deposited data

How the results depend on the processing

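The median level of the 9 genes, 29.5 TPM, became 17.2 on the deposited FPKM scale and 13.3 TPM with protein-coding transcripts only, a setting chosen after seeing the data, in which fewer transcripts are summed. It ran from 24.3 to 34.7 TPM with either replicate left out, and Meis1 was the median gene in both. The median log2 ratio, -0.04, became 0.52 under spike-in scaling, which moved the median of all tested genes from 0.01 to 0.56. All 9 genes then lay above 0, and the members' median minus that of all genes stayed at -0.05. None of the 9 was called under any scaling or minimum tried. Over all genes, 192 calls became 535 with spike-in scaling, 470 with a mean count of at least 20, 38 with at least 200 and 1097 with no minimum. The number at 1 TPM stayed at 9 with each replicate left out and was 6 at a minimum of 10 TPM. Neighbouring pairs that were apart numbered 7, and 6 with posterior mean TPM. With protein-coding transcripts only, Ppp1r1b (29.35 and 31.66 TPM) overlapped Ebf1 (30.38 and 27.03 TPM). Meis1 (14.65 and 11.94 TPM) then overlapped Pde10a (11.8 and 14.68 TPM), whereas Ebf1 and Meis1 came apart. No paired analysis was possible because the series holds 1 group. With 2 libraries, an SD rests on 1 difference, and Zfp503, Rgs9 and Adora2a, with under 400 counts a library, have the widest counting intervals.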
